A study of Mus musculus with 29 samples.

Results

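The genes described here are 10 known transcriptional targets of the tumor suppressor p53 in mouse bladder: Cdkn1a, Mdm2, Ccng1, Bax, Bbc3, Sesn2, Trp53inp1, Zmat3, Phlda3 and Eda2r. They were chosen by name as target genes, with no measured value in the rule, and are 10 of the 35199 genes in the deposited tables. All 10 were found in each table used, and all 10 passed the filter on low values in each comparison. The study measured RNA by sequencing in mice that carry an active form of the nuclear receptor Pparg in the basal cells of the urothelium, the lining of the bladder, and asked how this changes normal urothelium and chemically induced tumors. Of 29 samples, 21 libraries in 5 tables are used here.

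The 4-day groups are 4 control and 5 mutant libraries of urothelial cells sorted for GFP, taken 4 days after the last dose of tamoxifen. The labels give the controls as wild type and the mutants as K5VP16;Pparg+/-, and both as untreated. In the mutants the tamoxifen-inducible Krt5CreERT2 line, active in basal cells, switches on a fusion of the VP16 activator with Pparg1 placed in the Rosa26 locus, whose construct also carries EGFP. By the paper's methods, the sorted cells of both groups came from mice with the mTmG reporter, which makes GFP once Cre has acted. The control genotype differs between places in the paper (VP16;Pparg fl/fl or K5;mTmG), for these cells and for the basal tumors below. The tumor groups are laser-captured tissue from mice that drank the bladder carcinogen BBN at 0.05%, for 5 months by the treatment label. It was taken 4 months after tamoxifen. The groups are 3 basal tumors of mice given as wild type and 3 luminal tumors of K5VP16;Pparg+/- mice. Mice of the latter genotype also gave 3 luminal domains (the upper region of mixed lesions) and 3 basal-like domains (the lower region). In these mice tamoxifen was given into the bladder after 1 month of BBN. Strain, sex and age are not in the labels. Nothing says that the libraries of a group come from separate animals, so p-values measure the spread between these libraries and may be too small. No label says which upper and lower regions come from one lesion. If regions are paired, the unpaired fit between the domains leaves this out, and its p-values may instead be too large.

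As background, p53 is a transcription factor that is held at a low level by the ubiquitin ligase Mdm2 and accumulates after DNA damage and other stress. Its targets include genes that halt the cell cycle, genes that promote cell death, genes that limit metabolic and oxidative stress, and genes that feed back on p53 itself. In the bladder the p53 gene is often mutated in invasive cancer, and several of its targets, Cdkn1a above all, can also be driven by other factors.

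Values are normalized counts, which the authors made from kallisto estimates with DESeq2, separately for each table. Reads behind a value cannot be recovered from them, so the depth that a library reached is not known and no counting interval is given. Summed normalized counts ran from 36520200 to 41435700 per 4-day library and from 41697200 to 53253000 per library of the table with luminal tumors. Libraries are numbered here in the order of their columns, because the columns carry no replicate numbers. All 7 superficial markers and all 7 basal markers were above 0 in each library of the 4-day and the luminal tumor table, which does not set the groups apart, and their sums are given with the comparisons.

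Levels per kilobase of merged exons give a rough scale for setting genes side by side. Merged exons take in all annotated transcripts, so the order depends in part on the annotation. Phlda3 had the highest mean level of the 10 genes in 4-day controls, at 4867 normalized counts per kilobase. Ccng1 followed at 2417, Bax at 1843 and Cdkn1a at 1336. Mdm2 at 827 and Sesn2 at 815 were close to each other, and Trp53inp1 stood at 559. Far lower on this scale were Bbc3 at 79.3, Zmat3 at 65.5 and Eda2r at 9.02 normalized counts per kilobase. Without division by length, Zmat3 averaged 749 normalized counts and Bbc3 168 in these controls, so their order rested on the lengths. In 4-day mutants Cdkn1a, at 2571, stood above Bax, at 2184, and Zmat3, at 77.5, stood above Bbc3, at 75.1. In basal tumors the order of levels per kilobase began with Phlda3 at 12593, Bax at 5130 and Cdkn1a at 2049, and Eda2r was again lowest at 32.7. Neighbours in these orders were not tested against each other. Normalization is made within a table, so levels of different tables are not compared.

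The promoters of 8 of the 10 genes are in the RefSeq table used (GRCm38.p6, 250 bases before to 50 bases after each start), with 11 promoters among them. Trp53inp1 and Zmat3 have no entry. Both strands were searched for 5 motifs, chosen after the values had been seen. The p53 half-site, by its consensus name, was in 4 of the 11 promoters, of Cdkn1a, Mdm2, Ccng1 and Bax, against 8.36% of all 32817 promoters. The p53 full site, a pair of half-sites with 0 to 13 bases between them, was in 1 of the 11, of Cdkn1a, and in 24 promoters of all, or 0.0731%. The letters CCAAT were in 5 of the 11 and in 37.4% of all promoters. TATAAA was in 1 of the 11, of Eda2r, and in 13.6% of all. GGGCGG was in 9 of the 11 and in 35.6% of all promoters. A match describes letters and is not a bound site. The 4 promoters with a half-site are shown, with the half-sites in capitals. A pair of half-sites is what p53 is known to bind, and of these 4 only the promoter of Cdkn1a held a full site. Cdkn1a has another promoter among the 11 (chr17:29093519-29093818, plus strand), which held 0 half-sites and is not shown. The promoters shown are those of Cdkn1a (chr17:29090729-29091028, plus strand), Mdm2 (chr10:117710709-117711008, minus strand), Ccng1 (chr11:40755237-40755536, minus strand) and Bax (chr7:45466849-45467148, minus strand).
Cdkn1a: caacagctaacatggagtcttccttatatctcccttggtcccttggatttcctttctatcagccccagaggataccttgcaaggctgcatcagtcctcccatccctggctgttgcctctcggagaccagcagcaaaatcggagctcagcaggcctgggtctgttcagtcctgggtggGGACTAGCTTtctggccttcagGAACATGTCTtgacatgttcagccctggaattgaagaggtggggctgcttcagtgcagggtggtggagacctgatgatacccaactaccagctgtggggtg
Mdm2: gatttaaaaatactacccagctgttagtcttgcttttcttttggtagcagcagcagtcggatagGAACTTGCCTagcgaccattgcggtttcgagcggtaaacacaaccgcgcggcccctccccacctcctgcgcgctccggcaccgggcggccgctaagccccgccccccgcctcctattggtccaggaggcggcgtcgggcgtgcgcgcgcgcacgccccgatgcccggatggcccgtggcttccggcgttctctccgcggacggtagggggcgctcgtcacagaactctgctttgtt
Ccng1: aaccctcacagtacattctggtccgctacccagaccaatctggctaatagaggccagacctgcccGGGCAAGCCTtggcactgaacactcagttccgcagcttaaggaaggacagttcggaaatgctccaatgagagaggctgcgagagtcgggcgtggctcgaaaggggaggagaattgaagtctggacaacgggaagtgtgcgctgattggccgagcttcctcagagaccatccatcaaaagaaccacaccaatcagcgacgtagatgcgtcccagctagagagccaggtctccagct
Bax: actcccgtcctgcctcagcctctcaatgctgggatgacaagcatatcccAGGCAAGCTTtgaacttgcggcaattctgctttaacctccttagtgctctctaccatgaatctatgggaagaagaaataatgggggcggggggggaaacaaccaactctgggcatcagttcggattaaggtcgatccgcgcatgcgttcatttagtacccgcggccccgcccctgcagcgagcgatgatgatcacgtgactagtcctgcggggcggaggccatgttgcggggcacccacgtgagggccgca

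The first comparison asks what the active Pparg changed in sorted urothelial cells after 4 days. Cdkn1a, which encodes the cell cycle inhibitor p21, stood at 7555, 5152, 3978 and 2299 normalized counts in controls 1 to 4. In mutants 1 to 5 it stood at 14825, 10482, 7416, 7759 and 5198. Mutants 1, 2 and 4 lay above the highest control, and mutants 3 and 5 lay within the control range, so the groups overlapped. The log2 fold change was 0.98 (standard error, SE, 0.36, 95% interval 0.17 to 1.79), with an unadjusted p of 0.022 and an adjusted p of 0.165 in limma, so Cdkn1a was not called. Its value exceeded the control mean in 5 of 5 mutants.

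Y-linked genes were not balanced between the groups. Their summed level (Ddx3y, Eif2s3y, Kdm5d, Uty) was 404 normalized counts in control 1 and 9030, 9177 and 9046 in controls 2 to 4, against 338 to 395 in the 5 mutants. Sex and genotype therefore cannot be told apart in most of this table. Control 1, the control with the low Y-linked level, had the highest control values of Cdkn1a, Ccng1, Bax, Bbc3, Sesn2, Zmat3 and Eda2r. With the Y-linked score as a covariate the log2 fold change of Cdkn1a was 0.21 (limma adjusted p 0.951). Among low Y-linked libraries alone, control 1 against the 5 mutants, it was 0.18. That last alternative was chosen after seeing the data, and its lone control is assumed to vary like the mutants. Control 1 is the only control with a low Y-linked level, so the covariate fit also sets the mutants mostly against that 1 library. The 2 fits are therefore not separate checks, for Cdkn1a or for any gene below. Over all 20 alternatives the adjusted p of Cdkn1a ran from 0.101 to 0.988.

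**Figure D1:**
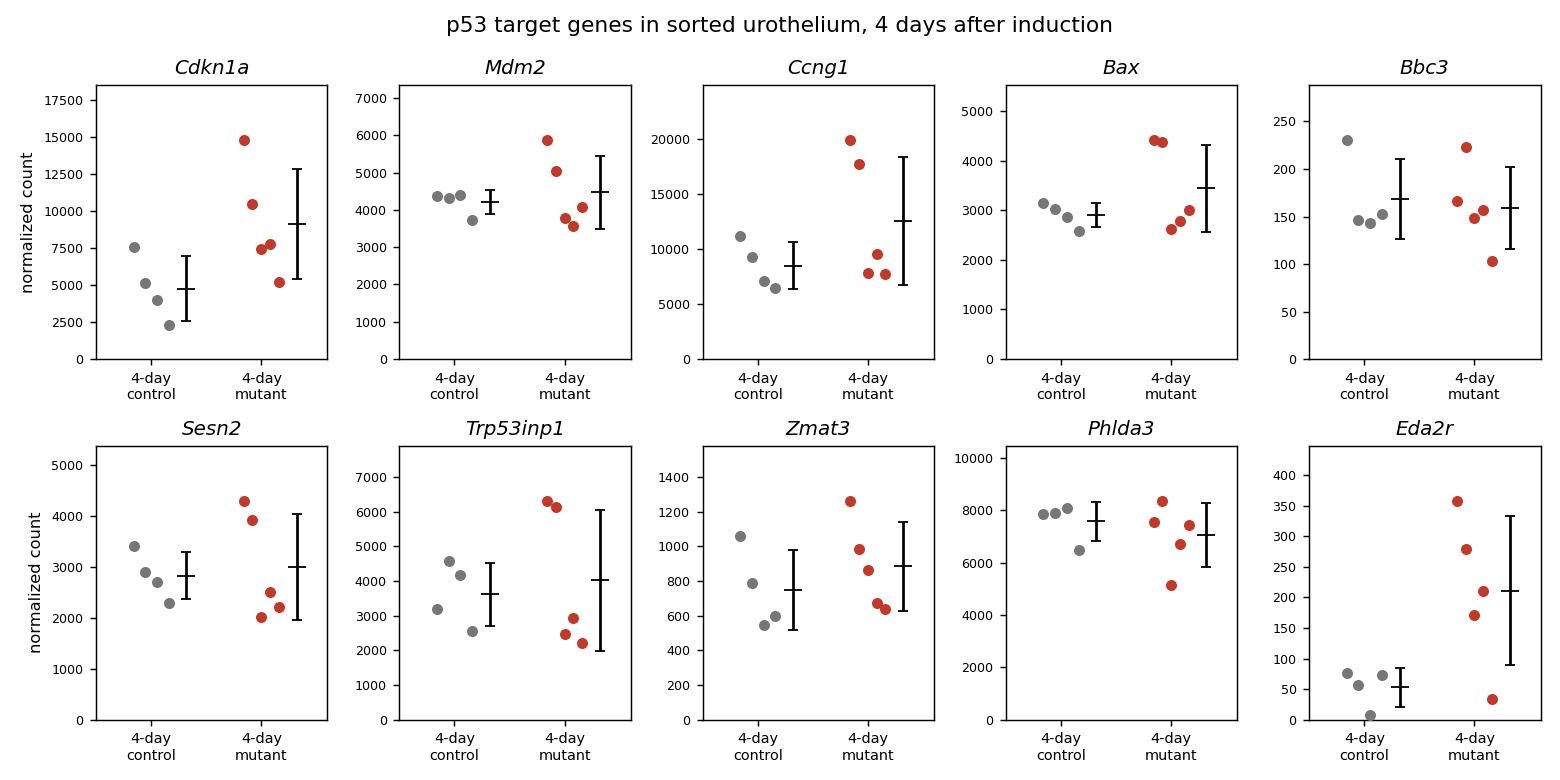
Normalized counts of the 10 p53 target genes in each 4-day library (points), with the mean and 1 SD of each group (bars) for 4 controls and 5 mutants; each panel has its own axis from 0. Cdkn1a runs between 2299 and 7555 in controls and between 5198 and 14825 in mutants, and in each of the 10 genes the groups overlap.

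Of the genes that regulate p53 or the cell cycle in response to it, Mdm2, the ubiquitin ligase that degrades p53, stood at 4370, 4307, 4409 and 3726 normalized counts in controls. In mutants it stood at 5881, 5050, 3770, 3565 and 4069. Mutants 1 and 2 lay above all controls and mutant 4 below them, and the log2 fold change was 0.07 (95% interval -0.27 to 0.40, limma adjusted p 0.836; -0.041 without mutant 1). Ccng1, which encodes cyclin G1, a cyclin known to act with a phosphatase on Mdm2, stood at 11156, 9232, 7115 and 6446 in controls. Its values in mutants were 19905, 17720, 7805, 9543 and 7703. Again mutants 1 and 2 exceeded the controls and the others lay among them, with a log2 fold change of 0.47 (SE 0.32, limma adjusted p 0.433). It was 0.28 without mutant 1, 0.053 with the Y-linked score as a covariate and 0.046 among low Y-linked libraries alone. Zmat3, a zinc finger RNA-binding protein, ran between 547 and 1061 in controls and between 637 and 1265 in mutants, with a log2 fold change of 0.24 (limma adjusted p 0.620; 0.10 without mutant 1 and 0.43 without control 1). This sign turned with the Y-linked score as a covariate, where the log2 fold change was -0.28. That fit rests mostly on control 1, the highest control at 1061, so the turn is not read as a fall.

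Of the genes that promote cell death, Bax, which opens the outer mitochondrial membrane, stood at 3139, 3028, 2868 and 2583 normalized counts in controls. Mutants held 4423, 4372, 2621, 2779 and 3010. Mutants 1 and 2 lay above every control and the other mutants within the control range, and the log2 fold change was 0.21 (95% interval -0.17 to 0.60, limma adjusted p 0.528; 0.10 with the Y-linked covariate and 0.11 without mutant 1). Bbc3, which encodes the death-promoting protein Puma, ran between 143 and 231 in controls and between 103 and 223 in mutants, for a log2 fold change of -0.09 (limma adjusted p 0.869). Without control 1 the log2 fold change of Bbc3 was 0.07, under quantile scaling -0.36 and with the Y-linked covariate -0.61. The covariate value rests mostly on control 1, the highest control at 231.

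Of the stress genes, Sesn2, a sestrin that restrains growth signaling through mTORC1, stood at 3420, 2898, 2713 and 2298 normalized counts in controls. Mutants held 4310, 3935, 2018, 2520 and 2226. Mutants 1 and 2 were above and mutants 3 and 5 below all controls, so that the log2 fold change was 0.03 (95% interval -0.50 to 0.56, limma adjusted p 0.957; -0.12 without mutant 1). Trp53inp1, a nuclear protein that promotes p53 activity under stress, stood at 3186, 4565, 4164 and 2556 in controls. In mutants its values were 6324, 6140, 2487, 2938 and 2210. The division of the mutants was the same, with a log2 fold change of 0.04 (95% interval -0.73 to 0.81, limma adjusted p 0.960; -0.16 without mutant 1). Signs of both turned negative under quantile scaling, to -0.0024 for Sesn2 and -0.0077 for Trp53inp1.

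Phlda3, a repressor of Akt signaling, ran from 6476 to 8091 normalized counts in controls and from 5146 to 8381 in mutants, for a log2 fold change of -0.12 (95% interval -0.43 to 0.20, limma adjusted p 0.677; -0.0092 without mutant 3 and -0.19 with the Y-linked covariate). Eda2r, a receptor for ectodysplasin encoded on the X chromosome, stood at 76.5, 56.1, 7.0 and 73.0 in controls. Mutants held 358, 279, 172, 211 and 34.6. Mutants 1 to 4 lay above all controls and mutant 5 lay among them. The log2 fold change was 2.06 (SE 0.82, 95% interval 0.23 to 3.88), with an unadjusted p of 0.031 and a limma adjusted p of 0.191. Eda2r was thus not called, and its log2 fold change was 1.08 with the Y-linked score as a covariate, 1.11 among the libraries with a low Y-linked level alone and 1.28 without control 3. The 2 Y-linked fits both rest mostly on control 1 and are not separate checks. Its adjusted p over the alternatives ran from 0.0834 to 0.958.

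In all, 0 of the 10 genes were called in limma at 4 days, where 467 of 16413 genes tested were called, or 2.85%, and 290 of these were higher. At an unadjusted p under 0.05 there were 2 of the 10 genes and 3418 of all genes, or 20.8%. The groups did not overlap in 0 of the 10, against 9.18% of all genes tested. Of the 10 log2 fold changes 8 were positive, with a median of 0.14 against 0.0045 over all genes tested. A p above the threshold does not show that levels were equal. Quantile scaling changed the balance of all calls to 270 higher and 287 lower, with 0 of the 10 genes called.

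How the mutants split was described further, by a measure chosen after the values had been seen. Each gene's log2 level in a library was set against the mean of the 4 controls. In mutants 1 and 2 all 10 genes lay above that mean of logs, with medians of 0.71 and 0.54 over the 10 genes. In mutant 1, however, Bbc3 and Phlda3 did so only by 0.0086 and 0.0031, and as normalized counts, at 166 and 7574, they stood just under the control means of 168 and 7587. In mutants 3, 4 and 5 only 3, 3 and 2 of the 10 genes lay above it, with medians of -0.15, -0.09 and -0.14. The controls differed among themselves too. In control 1 the number above the control mean was 9 of 10, in control 2 it was 9, in control 3 it was 3 and in control 4 it was 1. Over all genes tested the median deviation of a library lay between -0.0096 and 0.021. Mutants 1 and 2 also had the highest summed normalized counts of the 4-day libraries, at 40825400 and 41435700, against at most 38575400 in the others. Their superficial marker sums, 493810 and 404449, were the highest too, against at most 381194 in the others.

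**Figure D2:**
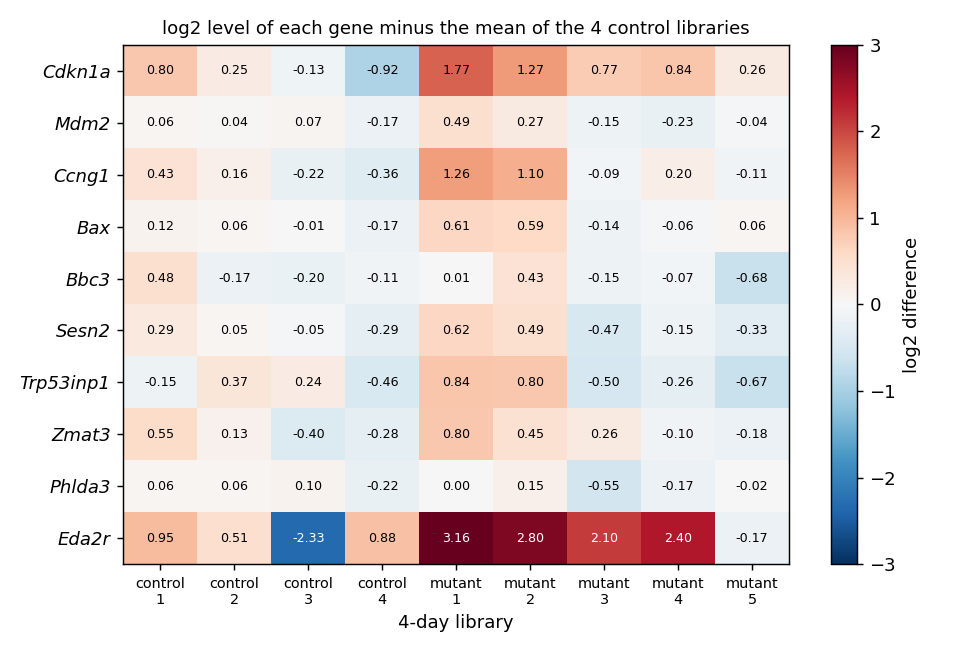
Difference in log2 level of each p53 target gene (rows) in each 4-day library (columns) from the mean of the 4 controls; red is higher, blue is lower, and the number in a cell is the difference. In the columns of mutants 1 and 2 the difference is positive for all 10 genes, though near 0 for Bbc3 and Phlda3 in mutant 1, while in those of mutants 3, 4 and 5 it is positive for 3, 3 and 2.

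With the group means removed, Pearson's r of the log2 levels over the 9 libraries of the 4-day table had a median of 0.70 over the 45 pairs of the 10 genes, and 44 pairs were positive. The mean r over all pairs of tested genes was 0.00052. Of the single genes, Zmat3 followed Cdkn1a at r = 0.88, Ccng1 at 0.86 and Sesn2 at 0.83, while Phlda3 at 0.45 and Eda2r at 0.47 followed it least. Over all genes tested the median r with Cdkn1a was -0.024. Without mutants 1 and 2, the libraries farthest out, 7 libraries gave a median r of 0.44 over the 45 pairs and 37 positive pairs, so part of the relation rested on those libraries. The libraries share their preparation, the table's normalization and the imbalance of Y-linked genes, and no test was made of these r values.

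Other lists also differed between these libraries, and of those in this paragraph only the G2/M genes were highest in both mutants 1 and 2. The summed level of 16 G2/M genes, which mark dividing cells, was 2092, 4315, 1985 and 1106 normalized counts in controls and 27513, 10061, 7107, 6148 and 3397 in mutants. All 16 had a positive log2 fold change (median 2.18), 0 were called in limma and 15 had an unadjusted p under 0.05. Mutants 1 and 2 held the most of these transcripts as well as the most Cdkn1a. Fibroblast markers summed to 11668, 25065, 42220 and 84728 in controls and to 84570, 30691, 217844, 129224 and 66823 in mutants, with Col3a1 or Dcn the most abundant. Of the 7 fibroblast markers 7 were higher by value (median 2.04), 1 of them called. Muscle markers summed to 113, 176, 89.2 and 876 in controls and to 2213, 293, 1175, 535 and 686 in mutants, where 5 of 5 were higher by value (median 2.03) and 0 were called, 4 having an unadjusted p under 0.05. By the paper's methods, the urothelium was parted from the stroma by hand and GFP-positive cells were then sorted. Fibroblast and muscle transcripts were nonetheless present in each 4-day library, and their source was not tested. The part of dividing or other cells in the values of the 10 genes was not tested, and in bulk libraries fewer cells of a type and less RNA per cell cannot be told apart.

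Of the remaining lists at 4 days, superficial markers had 7 of 7 positive log2 fold changes (median 0.61) and 1 call, and their sums ran between 201277 and 381194 in controls and between 252099 and 493810 in mutants. Basal markers had 3 of 7 positive (median -0.26), with 1 called higher and 1 lower, and sums between 163059 and 191723 in controls and between 109476 and 152428 in mutants. Immune markers had 3 of 9 tested positive (median -0.14), 0 called in limma and 3 with an unadjusted p under 0.05, with sums between 1072 and 1967 in controls and between 818 and 2738 in mutants. Endothelial markers had 1 of 3 tested positive (median -0.16), 0 called in limma and 0 with an unadjusted p under 0.05, with sums between 344 and 1180 in controls and between 285 and 1252 in mutants. The 4 Y-linked genes had negative log2 fold changes (median -4.11), with 1 of 4 called.

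Of 30 other p53 targets, 29 were tested at 4 days and 23 had a positive log2 fold change, with a median of 0.21. In limma 1 was called higher and 1 lower, and 6 had an unadjusted p under 0.05. Dram1, a lysosomal protein that promotes autophagy, rose from 21.7, 26.9, 18.6 and 24.7 normalized counts in controls to 134, 51.4, 629, 132 and 224 in mutants, for a log2 fold change of 2.82 (limma adjusted p 0.036). All mutants lay above all controls, and mutant 3, with low values of most of the 10 genes, had the highest Dram1. Of the mutants, mutant 3 was also highest and mutant 2 lowest in fibroblast marker sums (217844 and 30691), as in Dram1. A link between them was not tested. Rrm2b, a subunit of ribonucleotide reductase, fell from 1012, 900, 906 and 877 in controls to 599, 531, 587, 763 and 665 in mutants, for a log2 fold change of -0.56 (limma adjusted p 0.048), without overlap. With any 1 library left out the number of these 30 targets called was 0 or 1, and it was 0 with the Y-linked score as a covariate. The covariate fit rests mostly on control 1, so its 0 is not read as a lack of change.

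Of 12 genes upstream of or beside p53, 11 were tested at 4 days, 3 had a positive log2 fold change and the median was -0.15. In limma 0 were called and 3 had an unadjusted p under 0.05. Trp63, the p53 relative that maintains basal cells, held 27230, 34364, 36766 and 34480 normalized counts in controls and 12606, 21589, 17541, 27800 and 21961 in mutants (log2 fold change -0.75, limma adjusted p 0.0835). Trp73, the other relative, averaged 33.9 in controls and 12.6 in mutants (-1.66, limma adjusted p 0.178). Atr, a kinase of the DNA damage response, averaged 1283 and 855 (-0.58, limma adjusted p 0.0516). These are the largest differences of the list by size. Cdkn2a was listed at 0 in most 4-day libraries.

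The second comparison sets luminal tumors against basal tumors, fitted with all 8 libraries of their table, which also holds 2 luminal domains. Cdkn1a stood at 3527, 7512 and 10803 normalized counts in basal tumors 1 to 3 and at 5487, 5225 and 10559 in luminal tumors 1 to 3. The ranges lay on top of each other, and the log2 fold change was 0.03 (95% interval -1.04 to 1.1, limma adjusted p 0.984; -0.42 without basal tumor 1 and 0.38 without basal tumor 3). Its sign turned under quantile scaling, at -0.19, and it was 0.54 with luminal tumors and domains as 1 group.

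Among the regulators, Mdm2 stood at 1699, 1426 and 1420 normalized counts in basal tumors and at 804, 1209 and 613 in luminal tumors. All luminal tumors lay below all basal tumors, with a log2 fold change of -0.84 (SE 0.40, 95% interval -1.73 to 0.05, limma adjusted p 0.295; -0.41 with luminal tumors and domains as 1 group). Ccng1 ran from 1790 to 7655 in basal tumors and from 1648 to 5164 in luminal tumors, for a log2 fold change of -0.02 (limma adjusted p 0.989; 0.64 without basal tumor 2). Zmat3 ran from 447 to 1765 and from 286 to 643, a log2 fold change of -0.97 (95% interval -2.50 to 0.56, limma adjusted p 0.489; -1.51 without basal tumor 1 and -0.52 without basal tumor 2).

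Of the death genes, Bax ran from 7383 to 8729 normalized counts in basal tumors and from 7749 to 10428 in luminal tumors (log2 fold change 0.13, 95% interval -0.48 to 0.73, limma adjusted p 0.845; -0.10 under quantile scaling and 0.0027 without luminal tumor 3). Bbc3 ran from 149 to 344 and from 194 to 223, a log2 fold change of -0.06 (limma adjusted p 0.979; 0.27 without basal tumor 2). Its sign also turned under quantile scaling, at 0.36. Of the stress genes, Sesn2 ran from 212 to 1007 in basal tumors and stood at 406, 684 and 44.6 in luminal tumors, so that luminal tumor 3 alone lay below the basal range (log2 fold change -1.08, limma adjusted p 0.62). Trp53inp1 had the same low library, at 1137, 983 and 138 in luminal tumors against 425 to 2377 in basal tumors (-0.64, limma adjusted p 0.763). Without luminal tumor 3 both signs turned, with log2 fold changes of 0.10 for Sesn2 and 0.34 for Trp53inp1, and with luminal tumors and domains as 1 group they were -0.067 and -0.026.

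Phlda3 stood at 13400, 16137 and 29362 normalized counts in basal tumors and at 8606, 3204 and 18161 in luminal tumors. Luminal tumors 1 and 2 lay below all basal tumors and luminal tumor 3 did not (log2 fold change -1.22, 95% interval -2.51 to 0.07, limma adjusted p 0.296). Leaving out single libraries it ran from -1.82 to -0.57, the latter without luminal tumor 2. Eda2r stood at 160, 351 and 66.8 in basal tumors. It was listed at 0 in luminal tumors 1 and 2 and held 58.3 in luminal tumor 3, below all basal tumors. Its fitted log2 fold change depends on the number added to each value, so no fold is given. The unadjusted p was 0.017 and the adjusted p 0.175 in limma. Without luminal tumor 3 the gene is at 0 in all remaining luminal tumors, so that alternative is a comparison with 0 and is not read as a change. Over the alternatives, that one included, the adjusted p of Eda2r ran from 0.0399 to 0.419.

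**Figure D3:**
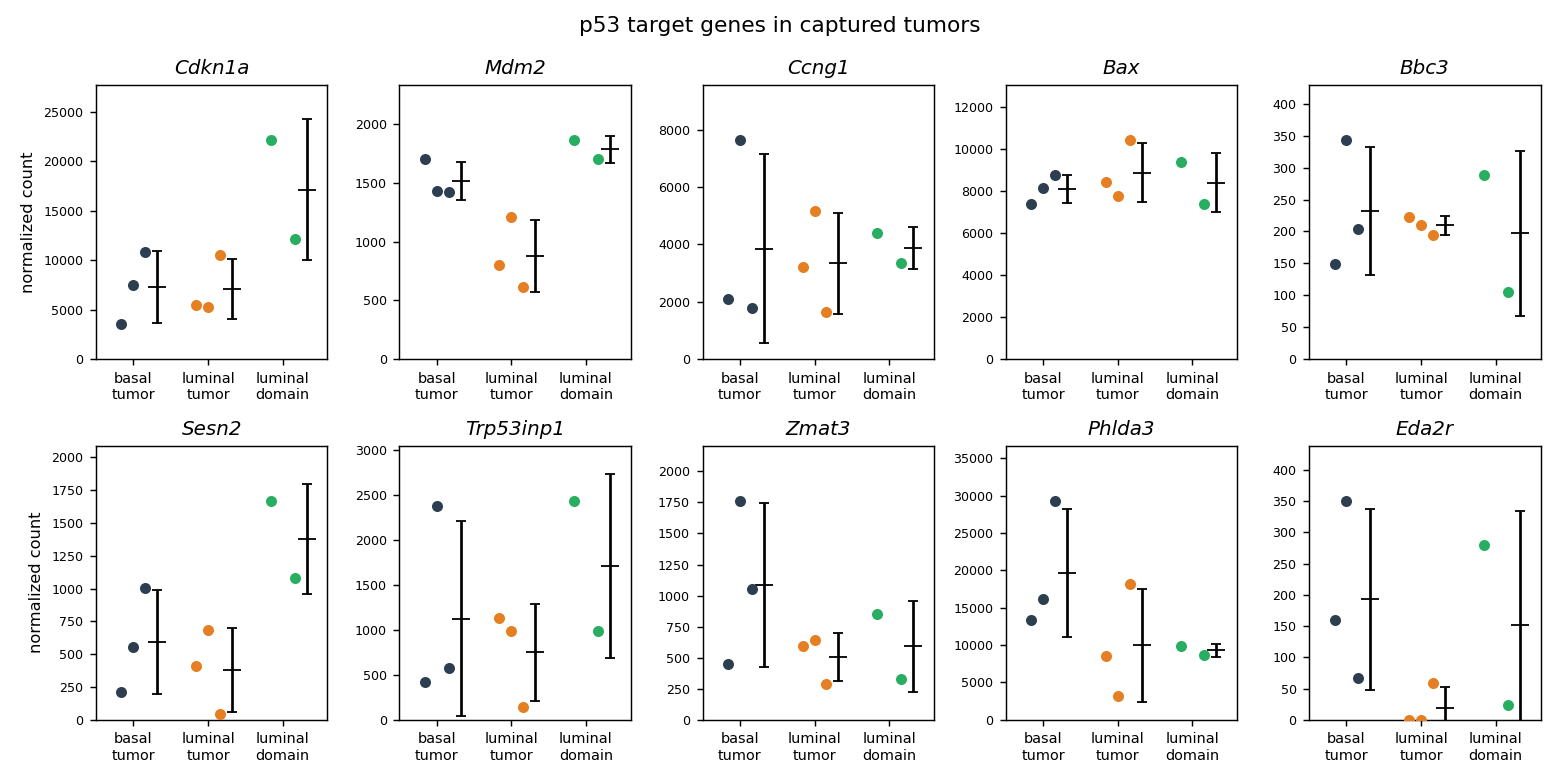
Normalized counts of the 10 p53 target genes in captured tissue from mice given BBN (points), with the mean and 1 SD (bars) of 3 basal tumors, 3 luminal tumors and 2 luminal domains of one table; each panel has its own axis from 0. Mdm2 in luminal tumors, from 613 to 1209, lies below its basal tumor values, from 1420 to 1699.

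Overlap was absent for 2 of the 10 genes here, Mdm2 and Eda2r, both lower, against 21.5% of all genes tested, which is close to the same share. In limma 0 of the 10 were called, against 338 of 15357 genes, or 2.2%. At an unadjusted p under 0.05 there was 1 of the 10, Eda2r, and 18.4% of all genes. Of the 10 log2 fold changes 2 were positive, with a median of -0.74 against -0.11 over all genes tested. Under quantile scaling the median over all genes was 0.02 in place of -0.11, a shift of the whole table. Without luminal tumor 1 only 3 genes of the table were called and without luminal tumor 3 there were 813, so the number of calls hung on single libraries.

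Across the 8 libraries, with group means removed, the 45 pairs of the 10 genes had a median r of 0.32 and 27 positive pairs. Their mean r was 0.17, against 0.00041 over all pairs of tested genes. Of all genes tested, 52.1% had a positive r with Cdkn1a. Bax followed Cdkn1a at r = 0.89, Phlda3 at 0.71, Eda2r at 0.54, Bbc3 at 0.52 and Zmat3 at 0.37, and Mdm2 ran against it at -0.57. Ccng1, Trp53inp1 and Sesn2 had r of -0.16, -0.11 and -0.04 with it. Without basal tumor 2 and luminal domain 1, the libraries farthest out, the median r was 0.15 with 24 positive pairs. The 4-day and tumor tables share no library, and the difference between their r values was not tested.

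By a rule on both tables, the genes whose levels were most like Cdkn1a over the 9 libraries of the 4-day table and the 8 of the tumor table were Rtn3, Erp29, Tubb4b, Arpc5 and Lamp1. Group means were left in here, so these r values are not comparable with those above, where the means were removed. The lower of the r values in both tables was 0.89 for Rtn3, 0.81 for Erp29, 0.81 for Tubb4b, 0.79 for Arpc5 and 0.79 for Lamp1. They came from 3457 genes that averaged at least 100 normalized counts and had an r above 0 with Cdkn1a in both tables. None of them is among the 10 genes.

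Markers of other cells differed widely between these tumors, beside the 10 genes. Superficial markers summed to 4305, 20094 and 13566 normalized counts in basal tumors and to 218184, 876186 and 149067 in luminal tumors, with 7 of 7 higher (median 8.70) and 4 called. Basal markers summed to 383928, 375221 and 802097 and to 84068, 16646 and 297475, with 7 of 7 lower (median -2.34) and 2 called. Fibroblast markers summed to 67706, 45144 and 63077 and to 805, 212 and 17149, with 7 of 7 lower (median -5.26), 3 of them called, and Pdgfrb at 0 in luminal tumors 1 and 2. Luminal tumor 3, the one with low Sesn2 and Trp53inp1, thus held the most fibroblast and the most basal transcripts of its group.

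Muscle markers, mostly Acta2, summed to 33627, 4745 and 42943 in basal tumors and to 220, 11.6 and 1053 in luminal tumors, with 5 of 5 lower and 2 called. Their median log2 fold change is that of Des, which was listed at 0 in all luminal tumors. It depends on the number added to each value and is not given. Immune markers, mostly Lyz2 or Cd68, summed to 134986, 29716 and 25798 and to 9687, 719 and 4745, with 8 of 9 lower (median -2.81), 0 called in limma and 4 with an unadjusted p under 0.05. Endothelial markers had 5 of 5 lower (median -3.65), 0 called in limma and 3 with an unadjusted p under 0.05. The 16 G2/M genes summed to 72283, 43730 and 58834 in basal tumors and to 4153, 10726 and 52098 in luminal tumors, with 16 of 16 lower (median -2.21) and 1 called. Y-linked genes had 3 of 4 lower (median -0.62), 0 called in limma and 0 with an unadjusted p under 0.05. What these cells add to the levels of Mdm2, Phlda3, Eda2r and the others was not tested.

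Of the 30 other p53 targets, all tested here, 12 had a positive log2 fold change (median -0.28), and 0 were called in limma, with 8 at an unadjusted p under 0.05. The largest differences by value were those of Pidd1, Gdf15 and Psrc1, each with overlapping groups, while 7 of the 30 did not overlap, 3 higher and 4 lower. Without luminal tumor 3, and likewise with luminal tumors and domains as 1 group, 2 of the 30 were called. Of the 12 genes upstream of or beside p53, 2 had a positive log2 fold change (median -0.52), 0 were called in limma and 2 had an unadjusted p under 0.05. Trp73 stood at 574, 1127 and 327 normalized counts in basal tumors and at 40.8, 2.17 and 79.4 in luminal tumors, without overlap (limma adjusted p 0.175). Trp63 averaged 5724 and 2411 (log2 fold change -1.30, limma adjusted p 0.200), and Hipk2, a kinase that phosphorylates p53, had overlapping groups (limma adjusted p 0.645) and a sign that turned without basal tumor 1.

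The third comparison sets the luminal domains of mixed lesions against the same 3 basal tumors, in a table of their own. Cdkn1a stood at 3660, 7645 and 11086 normalized counts in basal tumors and at 23382, 12922 and 7522 in luminal domains 1 to 3. Luminal domains 1 and 2 lay above all basal tumors and luminal domain 3 within their range. The log2 fold change was 0.96 (SE 0.52, 95% interval -0.24 to 2.16, limma adjusted p 0.345). Single libraries mattered, and with 1 left out it ran from 0.51, without basal tumor 1, to 1.36, and it was 0.54 without luminal domain 1.

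Mdm2 stood at 1811, 1490 and 1497 normalized counts in basal tumors and at 2018, 1866 and 1863 in luminal domains. Here every luminal domain lay above every basal tumor, by a small margin, and the log2 fold change was 0.27 (95% interval -0.41 to 0.94, limma adjusted p 0.655; 0.15 under quantile scaling). Against the same basal tumors Mdm2 was thus lower in luminal tumors and higher in luminal domains by value. In the table that holds all of these groups it stood at 1866 and 1703 in luminal domains 1 and 2 and at most at 1209 in luminal tumors, a difference that was not tested. Ccng1 ran from 1866 to 7916 in basal tumors and from 3639 to 4779 in luminal domains (log2 fold change 0.44, limma adjusted p 0.684; 0.054 without basal tumor 3 and 1.1 without basal tumor 2). Zmat3 ran from 459 to 1779 and from 350 to 885 (-0.74, limma adjusted p 0.554; -0.29 without basal tumor 2 and -1.27 without basal tumor 1).

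For the death genes the intervals lay around 0. Bax had a log2 fold change of -0.01 (95% interval -0.57 to 0.56, limma adjusted p 0.991; 0.091 without luminal domain 3) and Bbc3 of 0.09 (-1.74 to 1.93, limma adjusted p 0.959; -0.28 without luminal domain 3). Sesn2 stood at 224, 574 and 1050 normalized counts in basal tumors and at 1788, 1172 and 1260 in luminal domains. All luminal domains lay above all basal tumors, with a log2 fold change of 1.43 (SE 0.61, 95% interval 0.03 to 2.82), an unadjusted p of 0.046 and a limma adjusted p of 0.234. Leaving out single libraries put it between 0.83, without basal tumor 1, and 1.94. Trp53inp1 ran from 441 to 2422 in basal tumors and from 1059 to 2575 in luminal domains (0.90, limma adjusted p 0.503; 0.41 without basal tumor 1 and 1.64 without basal tumor 2).

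Phlda3 stood at 14172, 16732 and 30703 normalized counts in basal tumors and at 10661, 9435 and 12461 in luminal domains, with every luminal domain lower. The log2 fold change was -0.85 (SE 0.34, 95% interval -1.62 to -0.07), with an unadjusted p of 0.036 and a limma adjusted p of 0.210, and it was -0.51 without basal tumor 3. Eda2r stood at 159, 341 and 65.5 in basal tumors and at 282, 23.4 and 115 in luminal domains, with overlap (-0.73, limma adjusted p 0.770; -1.53 without luminal domain 1 and 0.23 without luminal domain 2). In contrast to luminal tumors 1 and 2, no luminal domain was listed at 0 for Eda2r.

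In limma 0 of the 10 genes were called in this comparison, against 377 of 14921 genes tested, or 2.53%. At an unadjusted p under 0.05 there were 2 of the 10, Sesn2 and Phlda3, and 20.6% of all genes. The groups did not overlap for 3 of the 10, Mdm2 and Sesn2 higher and Phlda3 lower, against 26.8% of all genes tested, which is near the same share. Of the 10 log2 fold changes 6 were positive, with a median of 0.18 against 0.0097 over all genes. Without luminal domain 1 the number of genes called in the table was 0. The comparisons of luminal tumors and luminal domains share their basal tumors, so they are not independent.

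**Figure D4:**
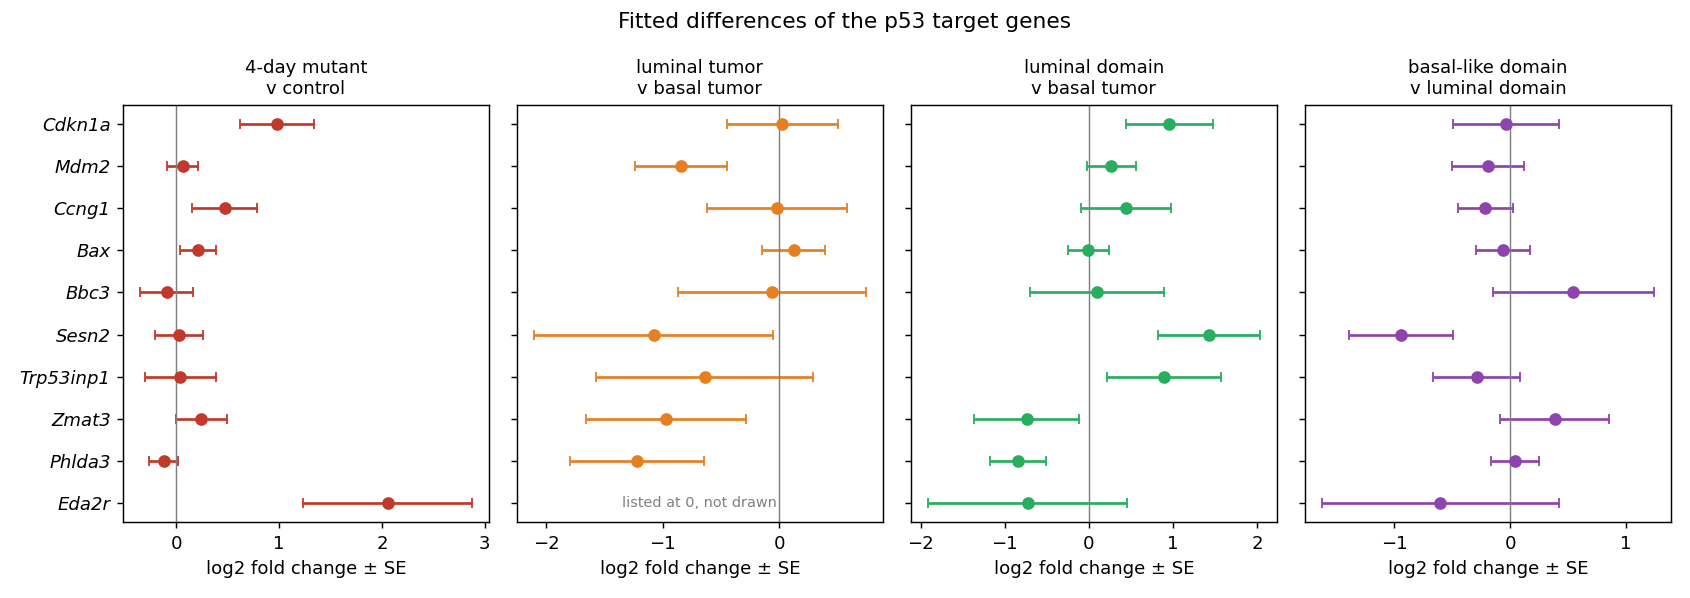
Fitted log2 fold changes of the 10 p53 target genes in the 4 comparisons (points) with 1 standard error on each side (bars); each panel has its own horizontal scale, and Eda2r is not drawn in luminal tumors, where it has libraries listed at 0. Cdkn1a stands at 0.98 in 4-day mutants, 0.03 in luminal tumors, 0.96 in luminal domains and -0.04 in basal-like domains, the last against luminal domains.

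Among the 30 other p53 targets 29 were tested in this comparison, 16 had a positive log2 fold change (median 0.04), and 9 had an unadjusted p under 0.05. In limma 1 was called, Pmaip1, which encodes the death-promoting protein Noxa. It rose from 2052, 1207 and 1727 normalized counts in basal tumors to 4247, 4517 and 5451 in luminal domains, for a log2 fold change of 1.54 (limma adjusted p 0.0476), without overlap. In luminal tumors it was also higher without overlap, at 2.02 (limma adjusted p 0.0669), and not called. The number called among these targets was 0 with quantile or upper-quartile scaling, with no filter, without a trend and without any 1 library other than basal tumor 2, where it was 2, with Pmaip1 not among them. Of the 12 genes upstream of or beside p53, 2 had a positive log2 fold change (median -0.62), 0 were called in limma and 1 had an unadjusted p under 0.05. The largest by size were Trp73 (-3.25, limma adjusted p 0.250), Chek1 (-2.46, limma adjusted p 0.349) and Cdkn2a (-2.03, limma adjusted p 0.458). Each was much smaller in size without its lowest luminal domain, where the log2 fold change was -1.57 for Trp73 without luminal domain 2, and -0.87 for Chek1 and -0.29 for Cdkn2a without luminal domain 1.

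Luminal domains held less G2/M transcript than basal tumors. The 16 genes summed to 77664, 45906 and 61825 normalized counts in basal tumors and to 12596, 10884 and 16237 in luminal domains, with 16 of 16 lower (median -2.28) and 8 called. Cdkn1a, by value, ran the other way. Superficial markers had 7 of 7 higher (median 7.53), 2 of them called. Basal markers had 7 of 7 lower (median -0.93), 0 called in limma and 5 with an unadjusted p under 0.05. Fibroblast markers summed to 71458, 46663 and 65881 and to 31667, 6036 and 5298, with 7 of 7 lower (median -2.77), 0 called in limma and 4 with an unadjusted p under 0.05. Muscle markers had 5 of 5 lower (median -3.99) and 2 called, with Cnn1 listed at 0 in all 3 luminal domains. Immune markers had 6 of 9 tested lower (median -1.72), 0 called in limma and 3 with an unadjusted p under 0.05. Endothelial markers had 3 of 5 higher (median 0.0013) and Y-linked genes 0 of 4 higher (median -0.53), 0 called in limma in either, with 1 at an unadjusted p under 0.05 in each. The part of any of these in the values of the 10 genes was not tested.

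The fourth comparison sets the basal-like domains of mixed lesions against the luminal domains. Cdkn1a stood at 23402, 13099 and 7618 normalized counts in luminal domains and at 20863, 11691 and 8836 in basal-like domains. Both groups had a wide spread and close values, and the log2 fold change was -0.04 (95% interval -1.10 to 1.02, limma adjusted p 0.998; 0.37 without luminal domain 1 and -0.44 without luminal domain 3). Quantile scaling turned this sign, at 0.06, and that of Bax, at 0.05.

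Sesn2 stood at 1813, 1203 and 1293 normalized counts in luminal domains and at 565, 1370 and 512 in basal-like domains. Basal-like domains 1 and 3 lay below all luminal domains and basal-like domain 2 among them (log2 fold change -0.94, 95% interval -1.99 to 0.10, limma adjusted p 0.935). Mdm2 held 2061, 1930 and 1925 in luminal domains and 1374, 1449 and 2575 in basal-like domains, so that its luminal values lay within a wider basal-like range (-0.19, limma adjusted p 0.981; -0.48 without basal-like domain 3 and -0.029 without basal-like domain 1). Ccng1 held 4756, 3738 and 4904 and then 4041, 3137 and 4388 (-0.22, limma adjusted p 0.964; -0.34 without luminal domain 2 and -0.074 without basal-like domain 2). Bax held 10037, 8128 and 7409 and then 9942, 7870 and 6820 (-0.06, limma adjusted p 0.989; 0.065 without basal-like domain 3). Set against each other in column order, which no label gives as a pairing, Ccng1 and Bax were lower in each basal-like domain, and the other 8 genes had both signs. Phlda3 was nearly level, from 9729 to 12839 and from 10243 to 12773 (0.05, 95% interval -0.43 to 0.53, limma adjusted p 0.990; -0.047 without luminal domain 2).

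Eda2r stood at 435, 36.5 and 179 normalized counts in luminal domains and at 90.7, 81.5 and 109 in basal-like domains (log2 fold change -0.60, 95% interval -2.97 to 1.76, limma adjusted p 0.982; 0.20 without luminal domain 1 and -1.57 without luminal domain 2). Bbc3 ran from 109 to 389 and from 208 to 466 (0.55, limma adjusted p 0.971; 0.0092 without luminal domain 2 and 0.92 without luminal domain 3). Zmat3 ran from 355 to 886 and from 566 to 939 (0.39, limma adjusted p 0.970; 0.037 without luminal domain 2 and 0.70 without luminal domain 1), and Trp53inp1 from 1056 to 2536 and from 1120 to 1511 (-0.29, limma adjusted p 0.972; 0.047 without luminal domain 1). In each of these genes the domains overlapped.

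**Figure D5:**
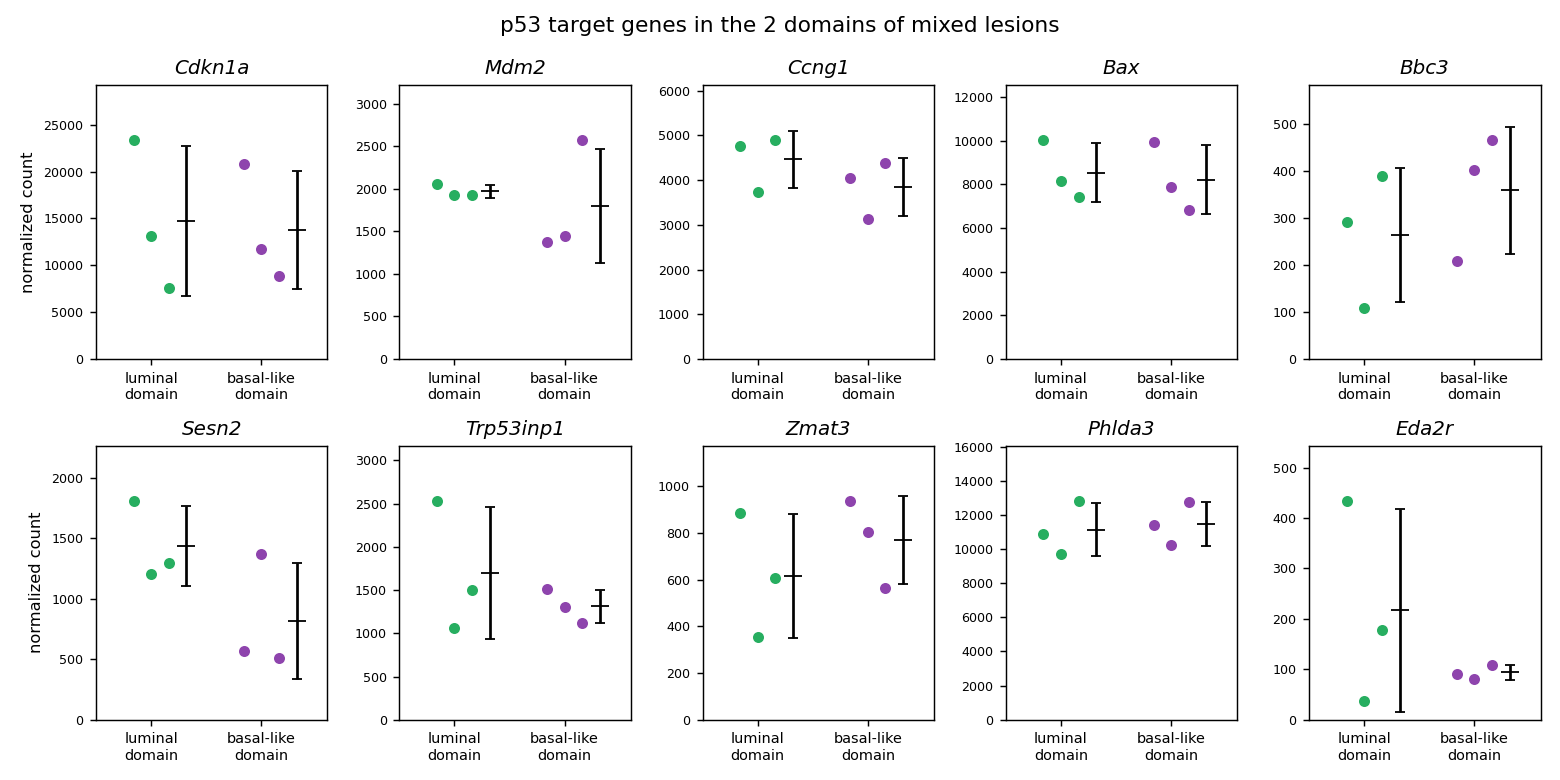
Normalized counts of the 10 p53 target genes in the luminal and basal-like domains of mixed lesions (points, 3 libraries each), with the mean and 1 SD of each group (bars); each panel has its own axis from 0. The domains overlap in all 10 genes, and Cdkn1a runs from 7618 to 23402 in luminal and from 8836 to 20863 in basal-like domains.

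None of the 10 genes and none of the 14874 genes tested was called between the domains in limma, so 0 of 10 stand beside 0% of all genes. At an unadjusted p under 0.05 there were 0 of the 10 genes and 757 of all, or 5.09%. With the domains paired in column order, an alternative chosen after seeing the data, 1 gene of the table and again 0 of the 10 were called in limma, and 1858 genes and 0 of the 10 had an unadjusted p under 0.05. Groups did not overlap for 0 of the 10, against 10.8% of all genes tested. Of the 10 log2 fold changes 3 were positive, with a median of -0.13 against 0.0093 over all genes. The luminal domain libraries are those of the third comparison, so these values are not independent of it.

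Of 30 other p53 targets 29 were tested between the domains, 14 had a positive log2 fold change (median -0.03), 0 were called in limma and 3 had an unadjusted p under 0.05. The largest by size were Psrc1 (2.23), Ckap2 (1.69) and Dram1 (1.05), with limma adjusted p from 0.935 to 0.947. These sizes hung on single libraries, as Psrc1 was at 1.14 without luminal domain 3, Ckap2 at 1.04 without luminal domain 1 and Dram1 at 0.50 without basal-like domain 2. Of the 12 genes upstream of or beside p53, 10 were positive (median 0.17), and 0 were called in limma, with 0 at an unadjusted p under 0.05. Trp73 (1.78), Chek1 (0.89) and Cdkn2a (0.78) had the largest log2 fold changes of that list by size. They too rested on 1 low library, with Trp73 at 0.11 without luminal domain 2, and Chek1 at -0.71 and Cdkn2a at -0.96 without luminal domain 1, so the sign of both turned.

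G2/M genes were higher by value in basal-like domains, summing to 12914, 11187 and 16643 normalized counts in luminal and to 25384, 48186 and 33484 in basal-like domains, with 15 of 16 positive (median 1.29), 0 called in limma and 11 with an unadjusted p under 0.05. Cdkn1a did not separate the domains beside them. Superficial markers had 0 of 7 positive (median -1.88) and basal markers 7 of 7 (median 0.52), 0 called in limma in either, with 2 at an unadjusted p under 0.05 in each. Fibroblast markers had 6 of 7 positive (median 1.57), 0 called in limma and 1 with an unadjusted p under 0.05. They summed to 32698, 6303 and 5520 in luminal and to 104544, 17347 and 14142 in basal-like domains. Superficial markers summed to 504510, 162150 and 117902 and then to 123325, 83232 and 34041. Set against each other in column order, the fibroblast sums were higher and the superficial sums lower in each basal-like domain. The counts of these lists come from the unpaired fit. Immune markers had 5 of 9 tested positive (median 1.13), muscle markers 3 of 3 tested (median 1.14), endothelial markers 3 of 5 (median 0.08) and Y-linked genes 3 of 4 (median 0.22). In these 4 lists 0 were called in limma and 0 had an unadjusted p under 0.05. Their part in the values of the 10 genes was not tested.

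By position in GRCm38, the 10 genes lie on chromosomes 17 (Cdkn1a, 29090976 to 29100727), 10 (Mdm2, 117688875 to 117710758), 11 (Ccng1, 40748552 to 40755311), 7 (Bax, 45461697 to 45466898, and Bbc3, 16308393 to 16318205), 4 (Sesn2, 132492032 to 132510501, and Trp53inp1, 11156431 to 11174379), 3 (Zmat3, 32334792 to 32366014), 1 (Phlda3, 135766119 to 135769136) and X (Eda2r, 97333840 to 97377216). Some exon bases of Cdkn1a lie in AC167363.2 on the opposite strand, and some of Bax in Gm45808 on the same strand. The library kit keeps no strand, so reads of these bases could be assigned to either gene. The other 8 genes share no exon bases with another annotated gene.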

How the data were processed

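RNA was sequenced by the authors from SMART-Seq v4 and Nextera XT libraries. The deposited signal values are normalized counts that the authors made from kallisto 0.44.0 estimates with DESeq2 1.18, by factors that differ from gene to gene and separately for each table. The build in the labels is GRCm38, and the transcript index is not stated. The authors' own comparison files, with fold changes and p-values, were not used. The 8 columns of the table on 1 month of BBN were not used, because nothing says which belong to which condition.

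Within a table, genes reaching 10 normalized counts in enough libraries to fill the smaller group were fitted with limma 3.58.1 (lmFit, eBayes with a trend) in R 4.3.3 on log2(normalized count + 1). A gene was called at a Benjamini-Hochberg adjusted p under 0.05 over all genes tested. The fit was tested on simulated data. Alternatives were other pseudocounts (0.5 and 5), a filter at 50 or none, eBayes without a trend or robust, quantile and upper-quartile scaling, other tables or groupings, the Y-linked score as a covariate, and each library left out. Low Y-linked libraries alone and a block for the domains were added after seeing the data. The block pairs the domains in the order of their columns, since the columns carry no replicate numbers and no label ties regions of one lesion. As a check made before the blocked fit, deviations from the group means over 14874 genes were correlated between domains. Their r was 0.36, 0.35 and 0.33 between domains of the same order, and from -0.20 to -0.11 between the others. Deviations cancel out within a group, so the negative r follow in part from the positive ones and are no separate check.

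The 10 genes and the lists (other p53 targets, genes upstream of or beside p53, G2/M, superficial, basal, immune, fibroblast, muscle, endothelial and Y-linked genes) were chosen with earlier results of these data known. Named were all 10 genes and, of the other targets and the genes upstream of or beside p53, those called or else the 3 with the largest log2 fold change by size. Of the other lists counts, sums and the most abundant gene were given, and for single libraries genes at 0. Genes like Cdkn1a are the 5 with the highest r in both tables, ranked by the lower r, with group means left in. They came from genes averaging 100 normalized counts or more with an r above 0 in both tables. Correlations with group means removed, deviations from the control mean and motifs were chosen after values were seen. Plots used matplotlib 3.10.9 and pandas 2.3.3 under Python 3.11.15.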

Additional observations from a re-analysis of the deposited data

Results flagged for a closer look

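In groups of 4 or 5 libraries, a library was singled out where its gap to the nearest other took up most of the group's range (Dixon's 95% value). Chance gives this in about 1 in 20 groups. Among the 10 genes 3 of 20 groups had such a library, and among the other lists 4 of 20. Mdm2 in 4-day control 4 stood at 3726 normalized counts, below 4307 to 4409 in the other controls. Phlda3 in the same library stood at 6476, below 7881 to 8091. Bbc3 in 4-day control 1 stood at 231, above 143 to 153 in the others. Y-linked genes summed to 404 in control 1, against 9030 to 9177 in the other controls. The G2/M sum of 4-day mutant 1 was 27513, above 3397 to 10061 in the other mutants. In 4-day control 4 the muscle sum was 876, above 89.2 to 176, and the endothelial sum was 1180, above 344 to 428. Control 4 also had the lowest Cdkn1a, Ccng1, Bax, Sesn2 and Trp53inp1 of the controls. What sets these libraries apart was not tested.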

How the results depend on the processing

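The columns carry no replicate numbers, so the planned block by replicate number could not be fitted. The number of the 10 genes called was 0 under each alternative of each comparison except in luminal tumors without luminal tumor 3, where it was 1, Eda2r; with single libraries left out it ran from 0 to 1 there. Both remaining luminal tumors are at 0 for Eda2r, so this is a comparison with 0 that rests on the added constant and is not read as a change. Of the log2 fold changes of the 10 genes under alternatives, 181 of 200 kept their sign and their side of the threshold at 4 days, 147 of 160 in luminal tumors, 132 of 140 in luminal domains and 139 of 150 in basal-like domains. The cause was not tested unless the alternative itself holds it, by fewer libraries or a different set of genes.

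At 4 days 467 genes were called, and 269 without a trend, 147 in the smaller table of 3 against 3 libraries, 25 with the Y-linked score as a covariate and 8 among low Y-linked libraries alone, an alternative chosen after seeing the data. With 1 library left out the number ran from 129 to 596. Signs turned under quantile scaling for Sesn2 (-0.0024) and Trp53inp1 (-0.0077), in the smaller table for Bbc3 (0.030), Sesn2 (-0.0072) and Trp53inp1 (-0.17), with the covariate for Sesn2 (-0.25) and Zmat3 (-0.28), and in the low Y-linked libraries for Sesn2 (-0.26) and Zmat3 (-0.31). Both Y-linked alternatives rest mostly on control 1, the only control with a low Y-linked level. With 1 library left out the log2 fold change ran from -0.041 to 0.14 for Mdm2, from -0.22 to 0.068 for Bbc3, from -0.12 to 0.16 for Sesn2 and from -0.16 to 0.22 for Trp53inp1.

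In luminal against basal tumors 338 genes were called, and 52 with no filter, 142 without a trend, 513 with luminal tumors and domains as 1 group and 142 with only the 6 compared libraries in the fit. Leaving out single libraries, the number ran from 3 to 813. Signs turned under quantile scaling for Cdkn1a (-0.19), Bax (-0.10) and Bbc3 (0.36), and with tumors and domains as 1 group for Ccng1 (0.12). With 1 library left out the log2 fold change ran from -0.42 to 0.38 for Cdkn1a, from -0.41 to 0.64 for Ccng1, from -0.34 to 0.27 for Bbc3, from -1.85 to 0.10 for Sesn2 and from -1.18 to 0.34 for Trp53inp1.

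In luminal domains against basal tumors 377 genes were called, and 144 with no filter and 107 without a trend. Leaving out single libraries, the number ran from 0 to 467. The sign of Bbc3 turned with upper-quartile scaling (-0.0072). With 1 library left out the log2 fold change ran from -0.14 to 0.091 for Bax, from -0.28 to 0.63 for Bbc3 and from -1.53 to 0.23 for Eda2r.

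Between the domains 0 genes were called in limma, with 757 at an unadjusted p under 0.05, and 20 were called without a trend. With column order as a replicate block, chosen after seeing the data and not given by the labels, 1 gene was called, which is not among the 10, and the block changed no other call. The 95% interval of Cdkn1a was -0.38 to 0.30 with the block and -1.10 to 1.02 without it. Signs turned under quantile scaling for Cdkn1a (0.063) and Bax (0.046). With 1 library left out the log2 fold change ran from -0.44 to 0.37 for Cdkn1a, from -0.21 to 0.065 for Bax, from -0.58 to 0.047 for Trp53inp1, from -0.047 to 0.15 for Phlda3 and from -1.57 to 0.20 for Eda2r. The paper gives a target depth, but the depth in reads that each library reached is not known. Its limit on low genes such as Eda2r therefore cannot be given.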
